A study of Mus musculus with 6 samples.

Results

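The stearoyl-CoA desaturases and the genes that make, lengthen and desaturate fatty acids were followed through osteoclast formation in 10 genes of the 24940 in the deposited table. They are the desaturases Scd1, Scd2 and Fads2, the synthesis genes Acly, Acaca and Fasn, the elongases Elovl1, Elovl5 and Elovl6, and Srebf1, which encodes the transcription factor SREBP1. They were taken by symbol, and all 10 passed the filter on low values, which asks for 0.5 RPKM or more on average. The set was chosen for the fall of Scd1 and Scd2 when leaf extract was added to RANKL, so the values of that comparison are described here without a test.

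Osteoclast precursors, which are bone marrow-derived macrophages (BMMs) grown from mouse marrow with M-CSF, were cultured for 3 days under 3 conditions, with 2 libraries each. All cells received M-CSF at 30 ng/mL. Cells without RANKL (-R) received nothing more, cells with RANKL (+R) received 100 ng/mL of this osteoclast-forming cytokine, and R+LE cells received the same RANKL together with 10 μg/mL of LE, a methanol extract of the leaves of Abeliophyllum distichum. The labels give C57BL/6 donors aged 6 to 8 weeks, whereas the study's methods name ICR mice. Neither source says whether the libraries of a condition came from separate animals or cultures, so p-values measure only the spread between these libraries, which may be technical.

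Fatty acid synthesis starts in the cytosol, where ATP citrate lyase (Acly) releases acetyl-CoA from citrate, acetyl-CoA carboxylase (Acaca) turns it into malonyl-CoA, and fatty acid synthase (Fasn) builds palmitate. Elongases of the Elovl family lengthen the chain, and stearoyl-CoA desaturases place the first double bond in it, which yields the monounsaturated fatty acids of membranes and stored fat. SREBP1 switches on most of these genes, and the oxysterol receptor LXR acts on Srebf1 and Scd1 as well.

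Each library held between 29390167 and 34846322 mapped reads, recovered from the whole-read steps of its RPKM values (reads on a transcript scaled by its length and by the library's depth). Rn45s, the ribosomal RNA precursor, took 4.97% to 6.83% of the reads on genes in -R, 10.9% to 11.1% in +R and 11.2% to 13.5% in R+LE. The 10 macrophage markers were all detected above the filter and had summed levels of 6840 and 7465 RPKM in -R, of 3561 and 2787 RPKM in +R, and of 4310 and 3861 RPKM in R+LE. The 12 osteoclast markers, also all above the filter, had summed levels of 109 and 118 RPKM in -R, of 2349 and 2078 RPKM in +R, and of 491 and 428 RPKM in R+LE. The osteoclast sum was higher with RANKL and lower again with LE, as several of the genes below were, and its part in those results was not tested. The macrophage sum was mostly Lyz2. Without it the other 9 markers summed to 1778 and 1894 RPKM in -R, then 1113 and 972 RPKM in +R, then 1119 and 932 RPKM in R+LE, so that +R and R+LE overlapped, and single markers moved in different directions. In bulk samples such as these, fewer cells of a type and less RNA per cell cannot be told apart. Adipocytes, a cell type rich in Scd1, were nearly unmarked, since none of their 7 markers passed the filter, 5 had at most 3 reads in every library, and their summed level reached at most 0.294 RPKM. The summed markers of other cells reached at most 18.2 RPKM for stromal cells and osteoblasts, 17.5 for neutrophils, 2.80 for lymphocytes and 7.78 for dendritic cells, while those of erythroid cells and megakaryocytes were 120 and 124 RPKM in -R and at most 18.4 in the other libraries.

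Scd1 and Scd2 are close copies, and the study read 100 bp from each end of a fragment, so the transcripts were first compared for stretches that such reads could not separate. In the GENCODE transcripts, 965 of the 1068 aligned coding bases (90.4%) were identical. The pair below is the most alike stretch of 150 coding bases, shown because reads are hardest to assign there. It runs from coding base 442 to 591 in Scd1 and from 451 to 600 in Scd2, both 5′ to 3′, and capitals mark the 1 base that differs.
Scd1: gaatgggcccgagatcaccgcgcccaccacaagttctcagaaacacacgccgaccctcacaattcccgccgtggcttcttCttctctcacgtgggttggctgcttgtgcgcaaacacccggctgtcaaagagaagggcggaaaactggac
Scd2: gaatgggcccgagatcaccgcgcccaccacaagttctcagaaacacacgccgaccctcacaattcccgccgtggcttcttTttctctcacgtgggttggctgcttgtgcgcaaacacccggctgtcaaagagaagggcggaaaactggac
Outside such stretches the transcripts diverge. Of the 4733 windows of 100 bases along the Scd1 transcript, 48 occur whole in Scd2, and these are 48 of the 5356 windows of Scd2. Scd3 was closer to Scd1, with 91.5% of aligned coding bases identical and 86 of the Scd1 windows found whole in it. In Scd4, 17 of the Scd1 windows were found. How reads from shared windows were assigned is not given in the sources used here. Their part in the low levels of Scd1, Scd3 and Scd4 was not tested.

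Scd2 lies at chr19:44293676-44306862 (mm10, plus strand) and carried most of the Scd signal. Its level was 5.62 and 5.82 RPKM in -R, 53.5 and 58.8 RPKM in +R, and 2.54 and 3.09 RPKM in R+LE. The 3 groups did not overlap, and R+LE lay below -R as well as below +R. In mean RPKM, +R (56.1 ± 3.75, SD, n = 2) was 9.82-fold above -R (5.72 ± 0.138), and R+LE (2.82 ± 0.386) was 19.9-fold below +R and 2.03-fold below -R. Between 437 and 9827 reads per library stood behind these values. All 61 bases of the miRNA gene Mir5114 fall within Scd2 and on its strand, so reads of the miRNA gene cannot be told from those of Scd2.

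Scd1 lies at chr19:44394450-44407709 on the minus strand and followed the same order at a lower level. It was at 1.08 and 1.40 RPKM in -R, 2.51 and 2.74 RPKM in +R, and 0.243 and 0.292 RPKM in R+LE. Again the groups did not overlap, and both R+LE libraries were the lowest. In mean RPKM, +R (2.62 ± 0.162, SD, n = 2) was 2.12-fold above -R (1.24 ± 0.226), and R+LE (0.268 ± 0.0346) was 9.81-fold below +R and 4.63-fold below -R. The R+LE libraries held 37 and 43 reads on the gene, against 372 and 406 in +R. Because the level in R+LE is under the pseudocount of 0.5 RPKM, the difference between R+LE and +R was -2.02 on the log2(RPKM + 0.5) scale and lay between -3.24 (limma's voom on recovered reads) and -1.51 (a pseudocount of 1 RPKM) over the alternatives. For Scd2 the alternatives lay between -4.28 and -3.91 on the log2 scale.

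The balance between the desaturases differed between conditions too. Summed over Scd1 to Scd4, the level was 6.71 and 7.29 RPKM in -R, 56.2 and 61.8 RPKM in +R, and 2.80 and 3.45 RPKM in R+LE. Scd2 made up 83.8% and 79.7% of that sum in -R, whereas its share was 95.3% and 95.1% in +R and lay at 91.0% and 89.4% in R+LE. Scd2 was thus the main Scd transcript in all 6 libraries. Per length, its level was 5.21 and 4.16 times that of Scd1 in -R, 21.3 and 21.5 times in +R, and 10.5 and 10.6 times in R+LE. The remaining genes of the cluster were near the limit of detection and were not tested, with 0 to 22 reads per library on Scd4 and 1 to 4 on Scd3. The highest Scd4 counts, 12 and 22, were those of the +R libraries.

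**Figure D1:**
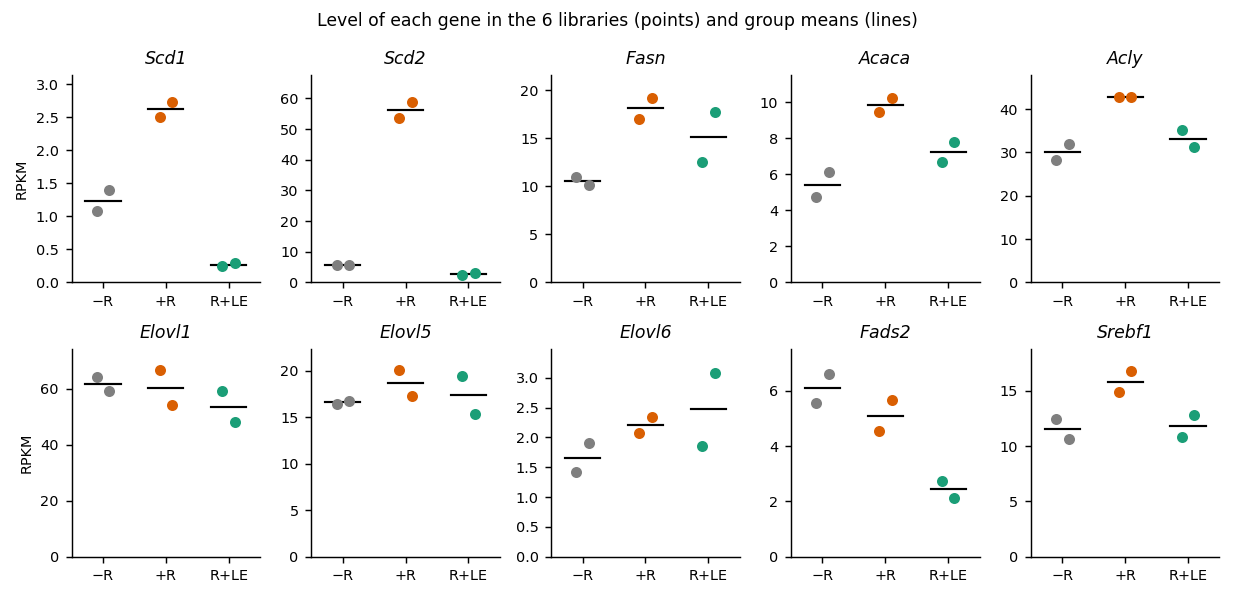
Each panel plots 1 gene, with RPKM on the vertical axis (from 0) and the conditions on the horizontal axis; points are the 6 libraries and lines the group means. Scd1 and Scd2 are high in +R and lowest in R+LE, Fads2 is lowest in R+LE without a clear peak in +R, and Elovl1, Elovl5 and Elovl6 overlap between +R and R+LE.

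Around the cluster, no neighbouring gene changed past the threshold. Of the 7 other genes, Mir5114 aside, whose start lies within 200 kb of Scd1 or Scd2 and which are listed in the table, 4 passed the filter. Between R+LE and +R the log2 difference was -0.04 for Cwf19l1 (adjusted p = 0.928), -0.07 for Bloc1s2 (adjusted p = 0.843), -0.37 for Ndufb8 (adjusted p = 0.175) and -0.15 for Hif1an (adjusted p = 0.661), by limma with Benjamini-Hochberg adjustment. None of them passed in +R against -R either. Pkd2l1 and Wnt8b were listed at 0, and Sec31b stayed below the filter.

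**Figure D2:**
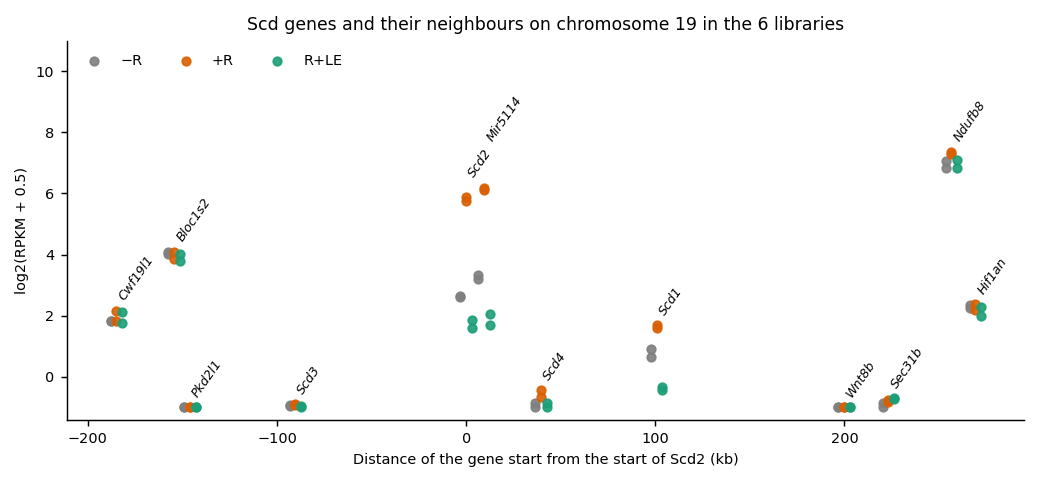
The plot gives log2(RPKM + 0.5) against the distance of each gene's start from that of Scd2 in kb, with 1 point per library (grey -R, orange +R, green R+LE; points of the groups are set slightly apart). Scd2, Mir5114 within it and Scd1 spread by condition, while the points of Cwf19l1, Bloc1s2, Ndufb8 and Hif1an stay close together.

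Fads2, the desaturase that begins the making of long polyunsaturated fatty acids, lies at chr19:10064164-10101503, far from the Scd cluster. Its level was 5.56 and 6.61 RPKM in -R, 4.54 and 5.67 RPKM in +R, and 2.74 and 2.13 RPKM in R+LE. The -R and +R libraries overlapped, whereas both R+LE libraries lay below all others. R+LE was 2.10-fold below +R in mean RPKM, a description because the set was chosen on that comparison. Against -R, R+LE was lower by a log2 difference of -1.17 (95% interval -1.52 to -0.82, adjusted p = 5.21e-05), and +R differed from -R by -0.24 (interval -0.59 to 0.12, adjusted p = 0.262). The table gives Fads2 a length of 1494 bases while the GENCODE transcript has 3150, so its level relative to other genes depends on the transcript used. Its neighbour in function, Fads1, did not pass in R+LE against +R (log2 difference 0.15, adjusted p = 0.61).

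The 3 genes that lead from citrate to palmitate, and Srebf1, were higher with RANKL. Among the 8 genes other than Scd1 and Scd2, these 4 passed (adjusted p below 0.05 by limma) in +R against -R, all of them higher, where 45.4% of all 11595 genes tested passed in either direction (23.9% higher and 21.5% lower). None of the 4 reached a 2-fold difference, where 6.58% of all genes were called higher and 8.92% lower (15.5% in all). Counting Scd1 and Scd2, the +R and -R libraries did not overlap in 8 of the 10 genes, where 75.2% of all genes did not overlap (40.3% higher in +R and 35% lower). The median log2 difference of the 8 genes was 0.39, beside 0.05 over all genes tested.

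Acaca, at chr11:84195438-84401651, was at 4.77 and 6.11 RPKM in -R, 9.48 and 10.2 RPKM in +R, and 6.71 and 7.80 RPKM in R+LE. The groups did not overlap, and R+LE lay between the others. The log2 difference of +R from -R was 0.81 (interval 0.49 to 1.13, adjusted p = 0.000461). R+LE was -0.42 from +R, given as a description, and 0.39 from -R, which did not pass (interval 0.07 to 0.71, adjusted p = 0.059) but did without the second -R library (adjusted p = 0.0433) or the first R+LE library (adjusted p = 0.0466). It also passed with a minimum mean of 1 RPKM, with each of the 3 other scalings, with the replicate block and with voom, where the adjusted p lay between 0.0185 and 0.0482.

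Fasn, at chr11:120805958-120824547, was at 10.9 and 10.1 RPKM in -R, 17.0 and 19.2 RPKM in +R, and 12.6 and 17.7 RPKM in R+LE. The second R+LE library lay within the +R range and the first below it, while all R+LE and +R libraries were above -R. The log2 difference of +R from -R was 0.75 (interval 0.41 to 1.10, adjusted p = 0.00142), and R+LE was -0.27 from +R. Against -R, R+LE was higher by 0.49 (interval 0.14 to 0.83, adjusted p = 0.0307). That last difference no longer passed without the first or second -R library (0.54 and 0.43) or without the second R+LE library (0.25).

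Acly, at chr11:100476352-100528000, was at 28.3 and 31.9 RPKM in -R, 42.9 and 42.7 RPKM in +R, and 35.1 and 31.2 RPKM in R+LE. The R+LE libraries overlapped those of -R and lay below those of +R. The log2 difference of +R from -R was 0.50 (interval 0.20 to 0.80, adjusted p = 0.00878). It no longer passed without the first -R library (0.42) or the first +R library (0.50). R+LE was -0.37 from +R and 0.14 from -R (interval -0.16 to 0.44, adjusted p = 0.487). The difference from -R passed with quantile normalization (0.26, adjusted p = 0.0483 by limma).

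Srebf1, at chr11:60199084-60220627, was at 12.5 and 10.6 RPKM in -R, 14.9 and 16.8 RPKM in +R, and 10.8 and 12.8 RPKM in R+LE. Again R+LE overlapped -R and lay below +R. The log2 difference of +R from -R was 0.44 (interval 0.13 to 0.75, adjusted p = 0.0231). It no longer passed without the second -R library (0.33) or the second +R library (0.36). R+LE was -0.41 from +R and 0.03 from -R (interval -0.28 to 0.34, adjusted p = 0.899). Its transcript shares 109 exon bases with Rai1 on the opposite strand, and whether counting used strand is not given in the sources used here.

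Promoter sequence was looked at because these 4 genes rose together. RefSeq windows (GRCm38.p6, from 250 bases before to 50 after the start) were found for 8 of the 10 genes, in 11 windows. Only the 250 bases before the start were searched, here and in all windows. The CCAAT box is bound by NF-Y, a partner of SREBP1. It was found on either strand in 5 of the 11 windows, where 33.8% of all 32851 windows hold it. These windows belong to Elovl1, Elovl5, Fasn and Srebf1. Those listed for Acaca and Acly held none, which does not tell of other starts of these genes. The Acaca window ends like the 3′ end of an intron (ttttcccatag), and whether it is a promoter was not tested. Srebf1 held it before other starts and not before that of the transcript measured here (chr11:60220628-60220877). The E-box CACGTG was found in the window of Elovl5 and in 6.02% of all windows. TATAAA was found in none of the 11 and in 12.4% of all, each searched on either strand. Upstream of Fasn, CCAAT or its reverse complement began at 3 positions, -90, -62 and -59 from the start, of which the last pair overlap on opposite strands. Its 250 bases upstream of the start, chr11:120824548-120824797 on the minus strand, are shown 5′ to 3′ with the matches in capitals.
Fasn: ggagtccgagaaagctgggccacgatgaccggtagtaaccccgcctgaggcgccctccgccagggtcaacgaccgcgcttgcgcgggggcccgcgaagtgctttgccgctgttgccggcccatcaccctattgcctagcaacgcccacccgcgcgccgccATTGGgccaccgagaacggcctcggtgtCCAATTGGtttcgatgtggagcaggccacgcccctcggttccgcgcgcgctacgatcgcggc

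With all 6 libraries, the elongases showed no difference past the threshold. Elovl1, which makes very long saturated chains, was the highest of the 10 genes per length in -R, at 64.3 and 59.3 RPKM, with 66.7 and 54.3 RPKM in +R and 59.3 and 48.0 RPKM in R+LE. Elovl5, which acts on polyunsaturated chains, was at 16.4 and 16.7 RPKM in -R, 20.1 and 17.2 RPKM in +R, and 19.5 and 15.3 RPKM in R+LE. Elovl6, which extends palmitate to stearate, the substrate of the desaturases, was at 1.42 and 1.90 RPKM in -R, 2.08 and 2.34 RPKM in +R, and 1.86 and 3.08 RPKM in R+LE. For all 3 genes the R+LE libraries overlapped those of +R. The log2 differences of +R from -R were -0.04 for Elovl1 (interval -0.38 to 0.30, adjusted p = 0.869), 0.16 for Elovl5 (interval -0.16 to 0.48, adjusted p = 0.41) and 0.33 for Elovl6 (interval -0.11 to 0.77, adjusted p = 0.202). Between R+LE and -R the log2 differences were -0.21 for Elovl1 (adjusted p = 0.339), 0.06 for Elovl5 (adjusted p = 0.809) and 0.44 for Elovl6 (adjusted p = 0.116). That of Elovl6 was 0.74 without the first R+LE library and 0.14 without the second. Elovl1 shares 53 exon bases with Cdc20 on the opposite strand. Differences within these intervals could not be detected with 2 libraries a group.

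Set side by side, R+LE was below +R in 9 of the 10 genes, with Elovl6 the exception, and the differences were of unlike size. The tally rests on single libraries for the genes near 0, since without the second R+LE library Elovl6 was -0.20 and Elovl5 0.064, and without the first +R library Elovl5 was 0.0038. Scd1 and Scd2 were the 2 genes at least 2-fold lower on the log2(RPKM + 0.5) scale, where 1.78% of all genes tested were called lower (adjusted p below 0.05 and at least 2-fold), 1.46% higher and 3.23% in all, and Fads2 came next at -0.93. The other 7 lay between -0.42 and 0.10, beside a median of -0.05 over all genes. The libraries did not overlap in 6 of the 10 genes, all lower in R+LE, where 49% of all genes did not overlap (19.5% higher and 29.5% lower). Because the set was chosen on this comparison, nothing is read from these counts. Against -R, where 34.3% of all genes tested passed, 1 of the 8 genes other than Scd1 and Scd2 was higher in R+LE (Fasn) and 1 was lower (Fads2), with 15.3% of all genes higher and 19% lower. That balance over all genes depended on scaling, as 1773 higher and 2201 lower became 2380 and 2101 after centring on the median. Quantile normalization gave 2531 and 2129, and depth without Rn45s gave 2245 and 1922. With voom more genes stayed lower (2275 higher and 2537 lower). Fads2 was also called, as were 10.3% of all genes (3.92% higher and 6.36% lower). The libraries of R+LE and -R did not overlap in 6 of the 10 genes, against 65.5% of all genes (31.2% higher and 34.3% lower). The 3 comparisons share libraries and are not independent of each other.

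**Figure D3:**
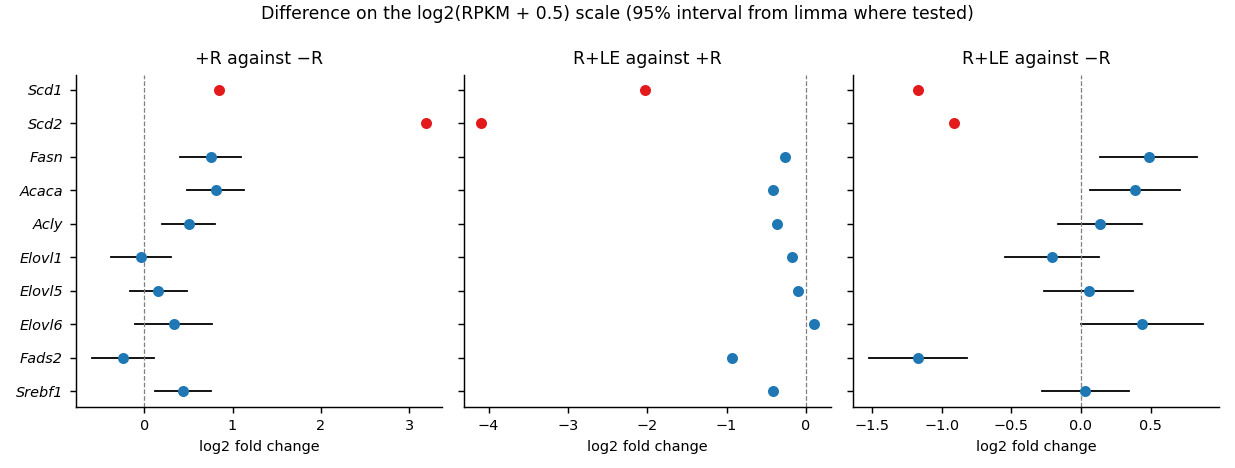
The horizontal axes give the log2 difference on the log2(RPKM + 0.5) scale for each gene in the 3 comparisons, with 95% limma intervals as lines where a test was made; Scd1 and Scd2 (red) and all genes in R+LE against +R are points without intervals. Scd2 stands at 3.19 and -4.10 in the first 2 panels, and Fads2 is the tested gene whose interval lies wholly below 0 in the third.

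Per length, the order of the genes differed between conditions mainly by the place of Scd2. In +R the order of mean RPKM was Elovl1 (60.5), Scd2 (56.1), Acly (42.8), Elovl5 (18.6), Fasn (18.1), Srebf1 (15.8), Acaca (9.85), Fads2 (5.10), Scd1 (2.62) and Elovl6 (2.21). Elovl1 and Scd2 overlapped in their libraries, as did Elovl5 and Fasn. In R+LE, Scd2 (2.82) ranked just above Elovl6 (2.47) and Fads2 (2.43), with which its libraries overlapped, and Scd1 (0.268) was last.

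The other lipid genes were taken from 8 lists, 132 genes in all, of which 110 were tested. In +R against -R, 39 were higher and 28 lower, where 45.4% of all genes passed, 23.9% higher and 21.5% lower. In R+LE against +R, 9 were higher and 19 lower, where 12% of all genes passed, 5.19% higher and 6.86% lower. These shares are the background for each list below. By list, 37.5% (control of SREBP1 and lipogenesis) to 80% (targets of LXR) passed in +R against -R. In R+LE against +R it was 12.5% (acyl-CoA synthetases) to 50% (targets of LXR). Over all genes the balance in R+LE against +R depended on scaling. The 602 higher and 795 lower became 792 and 742 after centring on the median and 841 and 827 after quantile normalization. More genes stayed lower with depth without Rn45s (642 higher and 776 lower) and with voom (906 and 933). Not all of the 28 lipid genes that passed did so when 1 library, of either side or of -R, was left out. Those lost without at least 1 library included Agpat3, Apoc2, Cbr4, Etfa, Fabp5, Lpin1, Msr1, Mvd, Nsdhl, Plin3 and Rxra. The median log2 difference in R+LE against +R was -0.15 over the 110 genes and -0.05 over all genes.

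Among 15 other tested enzymes of fatty acid synthesis, elongation and desaturation, mitochondrial synthesis included, 6 were higher and 3 lower in +R against -R. Those higher were Mcat, Oxsm, Mecr and Cbr4, all of mitochondrial fatty acid synthesis, and Hacd1 and Hacd3. In R+LE against +R, 2 were lower and 1 higher. The genes lower were Mcat (log2 difference -0.79, adjusted p = 0.00249) and Cbr4 (-0.47, adjusted p = 0.0366), both of mitochondrial fatty acid synthesis. Me1, the malic enzyme that supplies NADPH for synthesis, moved the other way, at 11.7 and 11.9 RPKM in -R, 4.85 and 4.39 RPKM in +R, and 11.7 and 10.3 RPKM in R+LE. Its log2 difference was -1.27 with RANKL (adjusted p = 2.33e-06) and 1.17 with LE (adjusted p = 3.94e-05).

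Of 16 tested genes that control SREBP1 and lipogenesis, 5 were higher and 1 lower in +R, and in R+LE against +R 2 were lower and 1 higher. Insig1, which holds SREBP in the endoplasmic reticulum and is itself an SREBP target, was at 6.54 and 7.82 RPKM in -R, 16.8 and 13.0 RPKM in +R, and 7.41 and 6.34 RPKM in R+LE. The R+LE libraries overlapped those of -R, with a log2 difference from +R of -1.05 (adjusted p = 0.00038). Mid1ip1, which helps acetyl-CoA carboxylase to polymerise, was lower in R+LE by -0.99 (adjusted p = 0.000134), and shares exon bases with an opposite-strand gene. Rxra, the partner of LXR, was lower in +R (-2.24, adjusted p = 4.04e-09) and higher in R+LE than in +R (0.48, adjusted p = 0.0319). Nr1h3, which encodes LXRα, did not pass in R+LE against +R (-0.38, adjusted p = 0.173).

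The 10 LXR targets were mostly lower with RANKL and did not move as a block when LE was added. In +R against -R, 1 was higher and 7 lower, and in R+LE against +R, 2 were higher and 3 lower. Against -R, 8 were lower in R+LE and 0 higher, where 19% of all genes passed lower and 15.3% higher. The cholesterol exporters Abca1 and Abcg1 were lower in R+LE, Abca1 at 16.3 and 22.1 RPKM in -R, 8.02 and 10.7 RPKM in +R, and 4.04 and 3.54 RPKM in R+LE. Their log2 differences from +R were -1.19 (adjusted p = 0.000284) and -1.46 (adjusted p = 7.28e-06). Pltp, the phospholipid transfer protein, was lower by -1.35 (adjusted p = 2.82e-05) after a rise of 1.23 with RANKL, and its exons overlap Ctsa on the opposite strand. Smpdl3a, a phosphodiesterase, was higher by 1.02 (adjusted p = 0.000887), and Apoc2, an apolipoprotein, by 0.84 (adjusted p = 0.0211). Apoc2 had only 2 and 0 reads in +R and 12 and 6 in R+LE. Its difference ran from 0.51 to 3.05 over the alternatives. Most exon bases of Apoc2 and of Fdps, a gene of cholesterol synthesis, also belong to another gene annotated on the same strand.

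Among 8 tested acyl-CoA synthetases, which activate fatty acids for use, Acsl1 and Acsl3 rose with RANKL and 3 fell. Acsl3 was at 2.11 and 2.56 RPKM in -R, 9.28 and 9.79 RPKM in +R, and 3.18 and 2.77 RPKM in R+LE. It was the 1 gene of this list that passed in R+LE against +R (log2 difference -1.53, adjusted p = 7.31e-06). Acsl1 had risen by 1.89 (adjusted p = 2.66e-08) and did not pass with LE (-0.30, adjusted p = 0.187).

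Of 21 tested genes of the cholesterol synthesis list, 12 were higher and 2 lower in +R. With LE, 5 were lower and 16 did not pass. Those lower than in +R included Hmgcs1 (-0.79, adjusted p = 0.00553), Fdps (-0.65, adjusted p = 0.00515), Mvd (-0.57, adjusted p = 0.0129) and Nsdhl (-0.54, adjusted p = 0.0325), all enzymes of the pathway.

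In fatty acid oxidation, 10 of 19 tested genes were higher and 1 lower in +R, and in R+LE against +R 3 were lower and 1 higher. The hydratase Echs1 (-0.79, adjusted p = 0.00287), the thiolase Acaa2 (-0.76, adjusted p = 0.00302) and Etfa (-0.53, adjusted p = 0.0425) were lower than in +R. Cpt1a, the gate for entry into mitochondria, was higher (0.73, adjusted p = 0.00328) after a fall of 1.78 on the log2 scale with RANKL.

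In glycerolipid synthesis and lipid droplets, 3 of 15 tested genes were higher and 7 lower in +R, and in R+LE against +R 2 were higher and 2 lower. Plin2, which coats lipid droplets, was at 836 and 805 RPKM in -R, 102 and 92.1 RPKM in +R, and 207 and 158 RPKM in R+LE. It was higher in R+LE than in +R by 0.90 (adjusted p = 0.00287) and stayed far below -R. Agpat3 was higher (0.52, adjusted p = 0.0177), while Lpin1 (-0.79, adjusted p = 0.0125) and Plin3 (-0.62, adjusted p = 0.0107) were lower.

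Among 8 tested genes of fatty acid uptake and binding, 5 were lower in +R and the other 3 did not pass. In R+LE against +R, 2 were higher and 1 lower. Cd36, a fatty acid and lipoprotein receptor of macrophages, was at 468 and 541 RPKM in -R, 25.5 and 21.4 RPKM in +R, and 140 and 103 RPKM in R+LE. Its log2 difference from +R was 2.34 (adjusted p = 6.89e-07). Msr1, a scavenger receptor, was also higher (0.73, adjusted p = 0.00696), and the binding protein gene Fabp5 was lower (-0.67, adjusted p = 0.0104).

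**Figure D4:**
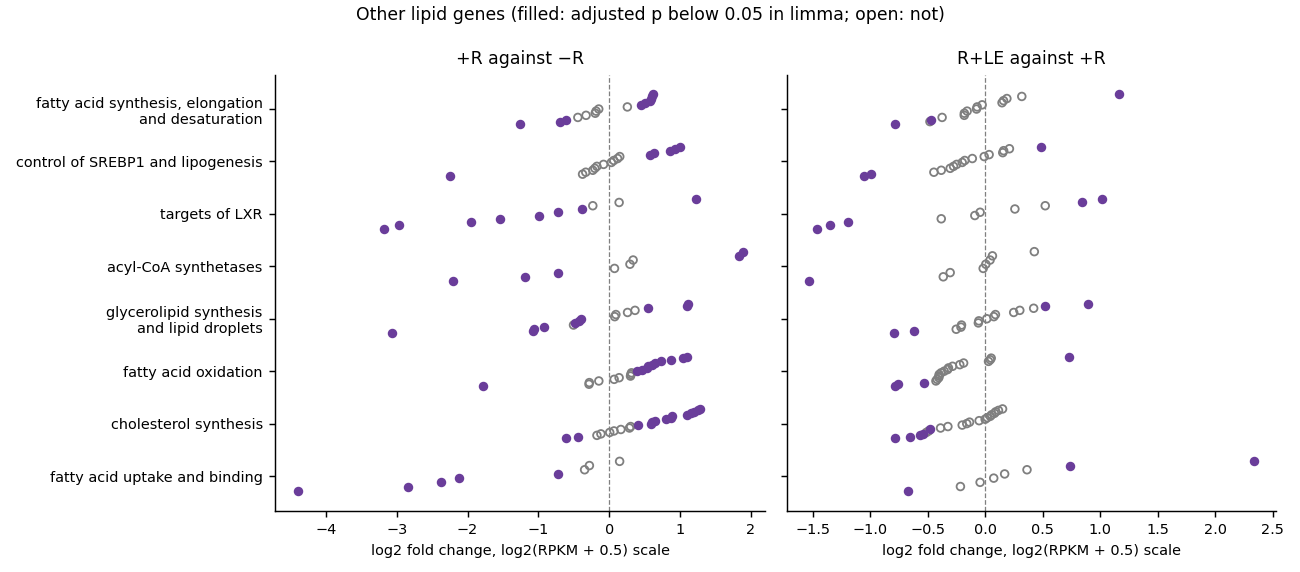
Each point is 1 tested gene of the 8 lists, with its log2 difference on the log2(RPKM + 0.5) scale on the horizontal axis; filled points had adjusted p below 0.05 in limma and open points did not. Most points are open in R+LE against +R, with Acsl3 at -1.53 and Cd36 at 2.34 farthest to each side.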

How the data were processed

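RNA from 6 libraries of BMM cultures was sequenced with 100 bp paired ends. The authors deposited 1 table of RPKM values for 24940 genes, made with HOMER on mm10, and its column titles say FPKM. The study's methods name TopHat as aligner, whereas the submitters' processing notes list HISAT2, HOMER and DESeq2, with no versions given. At least 99.99% of the low values checked were whole reads once multiplied by depth and length. The tolerance was the rounding error of each value plus 0.02 reads. Gene symbols turned into dates (26) were restored.

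Values were fitted as log2(RPKM + 0.5) with limma 3.58.1 in R 4.3.3 (3 groups together, variance trend, 11595 genes averaging 0.5 RPKM or more, Benjamini-Hochberg over all). Genes passed at adjusted p below 0.05 and were called at 2-fold besides, the study's thresholds. Fold changes on this scale understate those of low genes. Tables and figures were made in Python 3.11.15 with pandas 2.3.3, numpy 2.4.6 and matplotlib 3.10.9, and the fit was tested on simulated data. An exact two-sided permutation test of 2 against 2 libraries cannot go below p = 0.333 and was not used.

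The 10 genes, the lists of other lipid genes and the markers were chosen with earlier results of these data known. Named are the 10 genes, listed genes that passed or moved most, genes within 200 kb of Scd1 or Scd2, and the 5 genes most correlated with each. Transcript sequences came from GENCODE and promoter windows from RefSeq. Alternatives varied the pseudocount, filter, variance trend, groups fitted, scaling, replicate block, the use of voom, and the libraries included. Replicates differed by more than sampling noise in each group. Values of some listed genes are not reported here.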

Additional observations from a re-analysis of the deposited data

How the results depend on the processing

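With 2 libraries a group, small differences could not be resolved, and Scd1 in R+LE rests on few reads. Of the 8 genes other than Scd1 and Scd2, 1 passed as higher in R+LE against -R. The number was 0 with no filter or no variance trend and 3 with quantile normalization. It was 2 with a minimum mean of 1 RPKM, centring on the median, depth without Rn45s or voom. The cause was not tested. Fasn was the gene lost with no filter (adjusted p = 0.129) and with no variance trend (0.0532). Srebf1 in +R against -R was lost with no filter (0.065). Among other lipid genes in R+LE against +R, no filter gave 4 higher and 10 lower, in place of 9 and 19. In R+LE against -R, quantile normalization gave 26 higher and 30 lower, in place of 16 and 30. Of the lipid genes that passed, 46.4% were then higher, in place of 34.8%.

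Leaving out 1 library at a time gave, among the 8 genes, 3 to 4 higher in +R against -R, and 0 to 3 higher and 1 lower in R+LE against -R. Genes at least 2-fold lower in R+LE than +R numbered 2 to 3. Among other lipid genes it gave 5 to 9 higher (5 without the second +R library) and 13 to 25 lower in R+LE against +R, 29 to 42 higher and 21 to 32 lower in +R against -R, and 9 to 20 higher (9 without the first -R library) and 20 to 33 lower in R+LE against -R.

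Of the single-gene values under alternatives, 10 changed sign, all of Elovl1, Elovl5, Elovl6, Srebf1 and Plin3. Elovl1 in +R against -R was 0.024 with depth without Rn45s and ran from -0.18 to 0.11 when 1 library was left out. Left out in the same way, Elovl5 in R+LE against -R ran from -0.11 to 0.22, Srebf1 from -0.086 to 0.15, and Plin3 in +R against -R from -0.037 to 0.22. In R+LE against +R, Elovl5 ran from -0.27 to 0.064 and Elovl6 from -0.20 to 0.41.

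Whether replicate numbers pair the samples is not given in the sources used here. Deviations of same-numbered libraries correlated at -0.05 (-R with +R), 0.11 (-R with R+LE) and 0.25 (+R with R+LE). With 2 libraries a group, these values cannot settle it. With the replicate block, the 8 genes had 2 higher in R+LE against -R, and other lipid genes had 10 higher and 25 lower in R+LE against +R.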

Other observations

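Genes whose log2(RPKM + 0.5) followed Scd1 or Scd2 most closely over the 6 libraries were looked up among 3037 tested genes with a range of at least 1 on that scale, as a description over 3 conditions with no test. For Scd1 the highest Pearson correlations were those of Kdr (0.996), which encodes a VEGF receptor, Mir6948 (0.987, with at most 2 reads in any library), Egr2 (0.979), a transcription factor of myeloid cells, Prkch (0.962) and Ckb (0.953), the brain-type creatine kinase. Kdr was at 1.25 and 1.31 RPKM in -R, 1.83 and 2.01 RPKM in +R, and 0.526 and 0.576 RPKM in R+LE. For Scd2 they were Mid1ip1 (0.994), Ndst1 (0.993), Fahd1 (0.989), Mir5114 (0.988), which lies within Scd2, and Pltp (0.988). Fahd1 was at 2.45 and 2.39 RPKM in -R, 6.45 and 6.36 RPKM in +R, and 2.21 and 2.11 RPKM in R+LE. The correlation of Scd1 with Scd2 was 0.917.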
